A study of Mus musculus with 134 samples.

Results

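Long noncoding RNAs differ in where in the cell they are found, since some of them stay in the nucleus and others leave it. The present data describe 9 of the 25209 genes counted, chosen by name: the nuclear-retained transcripts Malat1, Neat1 and Miat, Tug1, which is found on both sides of the nuclear envelope, and 5 transcripts known as hosts of small nucleolar RNAs (snoRNAs), Snhg1, Snhg3, Snhg11, Gas5 and Dancr. The study built SET-seq, in which mouse embryonic stem cells (mESCs) are lysed, nuclei are captured on concanavalin A beads for chromatin profiling, and the cytoplasmic RNA left in the supernatant is reverse transcribed with oligo-dT and cut directly by the Tn5 transposase as an RNA/cDNA hybrid. Nuclei that escaped the beads were removed by centrifugation before the RNA was used.

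Malat1 sits in nuclear speckles, where splicing factors gather, and its 3' end is made by RNase P cleavage rather than by ordinary polyadenylation. Neat1 is the scaffold of paraspeckles, and Miat (Gomafu) forms its own nuclear bodies. Host genes typically carry snoRNAs in their introns; the spliced exons are exported, often start with a run of pyrimidines shared with ribosomal protein mRNAs, and are in several cases degraded in the cytoplasm by nonsense-mediated decay.

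The features that set these transcripts apart can be read in the mm9 genome, the build used for the counts. Because priming was by oligo-dT and the mature Malat1 carries no long poly(A) tail, its genomic A-tract is shown, in capitals, within the 186 bases that run to the end of the tRNA-like small RNA Mascrna, at chr19:5795924-5796109 on the minus strand. The 12 adenines lie 6 bases before Mascrna (chr19:5795924-5795981), and 6.84% of 24943 genes have an adenine run as long in their exons.
Malat1 3' end: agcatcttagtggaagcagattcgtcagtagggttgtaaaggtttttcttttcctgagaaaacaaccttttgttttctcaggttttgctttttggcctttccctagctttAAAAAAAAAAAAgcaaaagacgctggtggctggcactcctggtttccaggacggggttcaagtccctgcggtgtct
The longest adenine run was 8 in Tug1 and in Snhg11, 7 in Neat1 and 4 in each of the other 5 members, against a median of 6 over all genes. To compare the starts, 60 bases around the annotated start site (30 before and 30 after) are given for 6 members, with the longest run of C and T that reaches within 10 bases of the start in capitals.
Malat1, chr19:5802643-5802702, minus strand: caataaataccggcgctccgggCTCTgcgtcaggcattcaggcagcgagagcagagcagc
Tug1, chr11:3548788-3548847, minus strand: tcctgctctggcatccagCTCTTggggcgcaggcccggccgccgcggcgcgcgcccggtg
Snhg1, chr19:8797947-8798006, plus strand: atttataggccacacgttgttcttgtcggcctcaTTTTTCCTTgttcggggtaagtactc
Snhg3, chr4:131909572-131909631, minus strand: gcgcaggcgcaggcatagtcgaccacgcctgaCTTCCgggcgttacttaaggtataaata
Gas5, chr1:162965017-162965076, plus strand: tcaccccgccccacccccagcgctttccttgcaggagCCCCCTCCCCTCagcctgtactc
Dancr, chr5:74489055-74489114, plus strand: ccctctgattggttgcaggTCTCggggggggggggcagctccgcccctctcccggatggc
Gas5 had the longest such run, 12 bases, which 3.89% of genes match or exceed, and Snhg1 had 9 bases, which 9.61% match or exceed. The run was 4 bases in Malat1 and in Dancr and 5 in Tug1 and Snhg3, near the median gene's 4. Of the members not shown, the nuclear-retained Miat had 7 bases, which 20.2% of genes match or exceed, Neat1 5 and the host Snhg11 3.

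The members differ widely in build. Malat1 (chr19:5795690-5802672, minus strand) and Neat1 (chr19:5824710-5845480, minus strand) are each 1 unspliced exon, of 6983 and 20771 bases, and lie next to each other. Miat (chr5:112642248-112657968, minus strand) has 8760 exonic bases in 7 exons and Tug1 (chr11:3539788-3548817, minus strand) 6781 in 3 exons. Among the hosts, Snhg1 (chr19:8797977-8800816, plus strand) has only 476 exonic bases in 10 exons, Snhg3 (chr4:131907848-131909601, minus strand) 437 in 3, Gas5 (chr1:162965047-162968670, plus strand) 751 in 12, Snhg11 (chr2:158201449-158212210, plus strand) 6118 in 5, and Dancr (chr5:74489085-74490362, plus strand) 1278 in 1 exon, so that Dancr is not spliced in this annotation, which places no snoRNA gene inside Snhg3 or Snhg11. Counting assigned a read pair only where it fell on 1 gene, so Mascrna, inside the Malat1 exon, and Snora26, inside the Dancr exon, were at 0 in all 54 libraries by construction. The counts carry no strand, so an antisense transcript over a member cannot be told apart from it.

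All bulk libraries are labelled as ES-E14TG2a, a 129/Ola embryonic stem cell line. In 24 total RNA libraries from 12 conditions, RNA from whole cells was reverse transcribed and cut in the tube at 16 °C or 37 °C for 5, 10, 15 or 30 min, with 25, 50 or 100 ng/µl of Tn5, or from 300 ng of RNA; 4 further libraries started from 3 ng or 30 pg. The 2 ligation libraries were made in the conventional way from poly(A)-selected, fragmented and randomly primed mRNA, so they also hold nuclear RNA. The cytoplasm was sampled in 18 wild-type (WT) SET-seq libraries of 100, 1000 or 10000 cells, 6 each with no antibody, an H3K4me3 antibody or an H3K27me3 antibody on the nuclei, in 2 SET-seq libraries of 10 cells, and in 4 SET-seq libraries from 2 clones lacking Aebp2 (KO1 and KO2), an accessory subunit of Polycomb repressive complex 2; the clones were made with CRISPR/Cas9 and 2 different guide RNAs. Every condition had 2 libraries. In single cells, scSET-seq was run on mESCs attached to Wnt3a-coated beads, with the daughter cell next to the bead (proximal) and the one away from it (distal) picked apart.

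Totals ran from 1178008 to 17647365 counts in total RNA libraries, from 14184697 to 14286607 in ligation libraries, from 243741 to 9023045 in WT SET-seq and from 1964974 to 2351822 in the Aebp2 clones. The ribosomal RNA precursor Rn45s took 4.30% to 40.7%, 1.54% to 1.96%, 12.6% to 34.2% and 48.8% to 56.7% of them, and was removed before CPM (counts scaled to the same total in every library) were computed. Markers of embryonic stem cells summed to 3505 to 8536 CPM in every library, against 0 to 30.4 for fibroblast and 0.306 to 37.1 for primitive endoderm markers. Hprt, which the E14TG2a line is known to lack, stood at 0 to 1.29 CPM in the total RNA libraries and 0 to 2.14 in the Aebp2 clones, but at 181 and 184 in the ligation libraries and 66.2 to 485 in WT SET-seq. The WT SET-seq libraries therefore differ from the total RNA libraries in this gene as well as in the compartment sampled, and the 2 cannot be told apart there; SET-seq against ligation, and the Aebp2 clones against total RNA, are the comparisons in which both sides have the same Hprt state.

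Per length of exon (RPKM, CPM per 1000 exonic bases), Snhg1 was the most abundant member in every kind of library. In total RNA its median level was 173 RPKM, followed by Gas5 at 67.7, Malat1 at 27, Dancr at 12.7, Snhg3 at 11.6, Tug1 at 2.64, Snhg11 at 1.43, Neat1 at 0.554 and Miat at 0. Dancr and Snhg3 are not separated by this order, with Dancr above Snhg3 in 15 of 24 libraries, nor are Tug1 and Snhg11, with Tug1 above in 17 of 24. In WT SET-seq, Snhg3 came next to Snhg1 (226 RPKM) at 51.9, above Gas5 at 35.9 in 14 of 18 libraries, followed by Malat1 at 14.8. Dancr at 10.2 and Tug1 at 8.24 overlapped, Dancr being higher in 12 of 18, and Snhg11, Neat1 and Miat came last at 1.24, 0.492 and 0.0416. In the ligation libraries every neighbour in the order was separated, from Snhg1 at 105 RPKM through Snhg3 at 70.4, Gas5 at 62.1, Malat1 at 54.6, Tug1 at 20.9, Dancr at 10.2, Snhg11 at 5.26 and Neat1 at 3.50 to Miat at 0.314. The Aebp2 clones gave Snhg1 at 102, Snhg3 at 34.2, Malat1 at 19.5, Gas5 at 17.8 and Tug1 at 10.6, with Malat1 above Gas5 in 2 of 4 libraries.

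**Figure D1:**
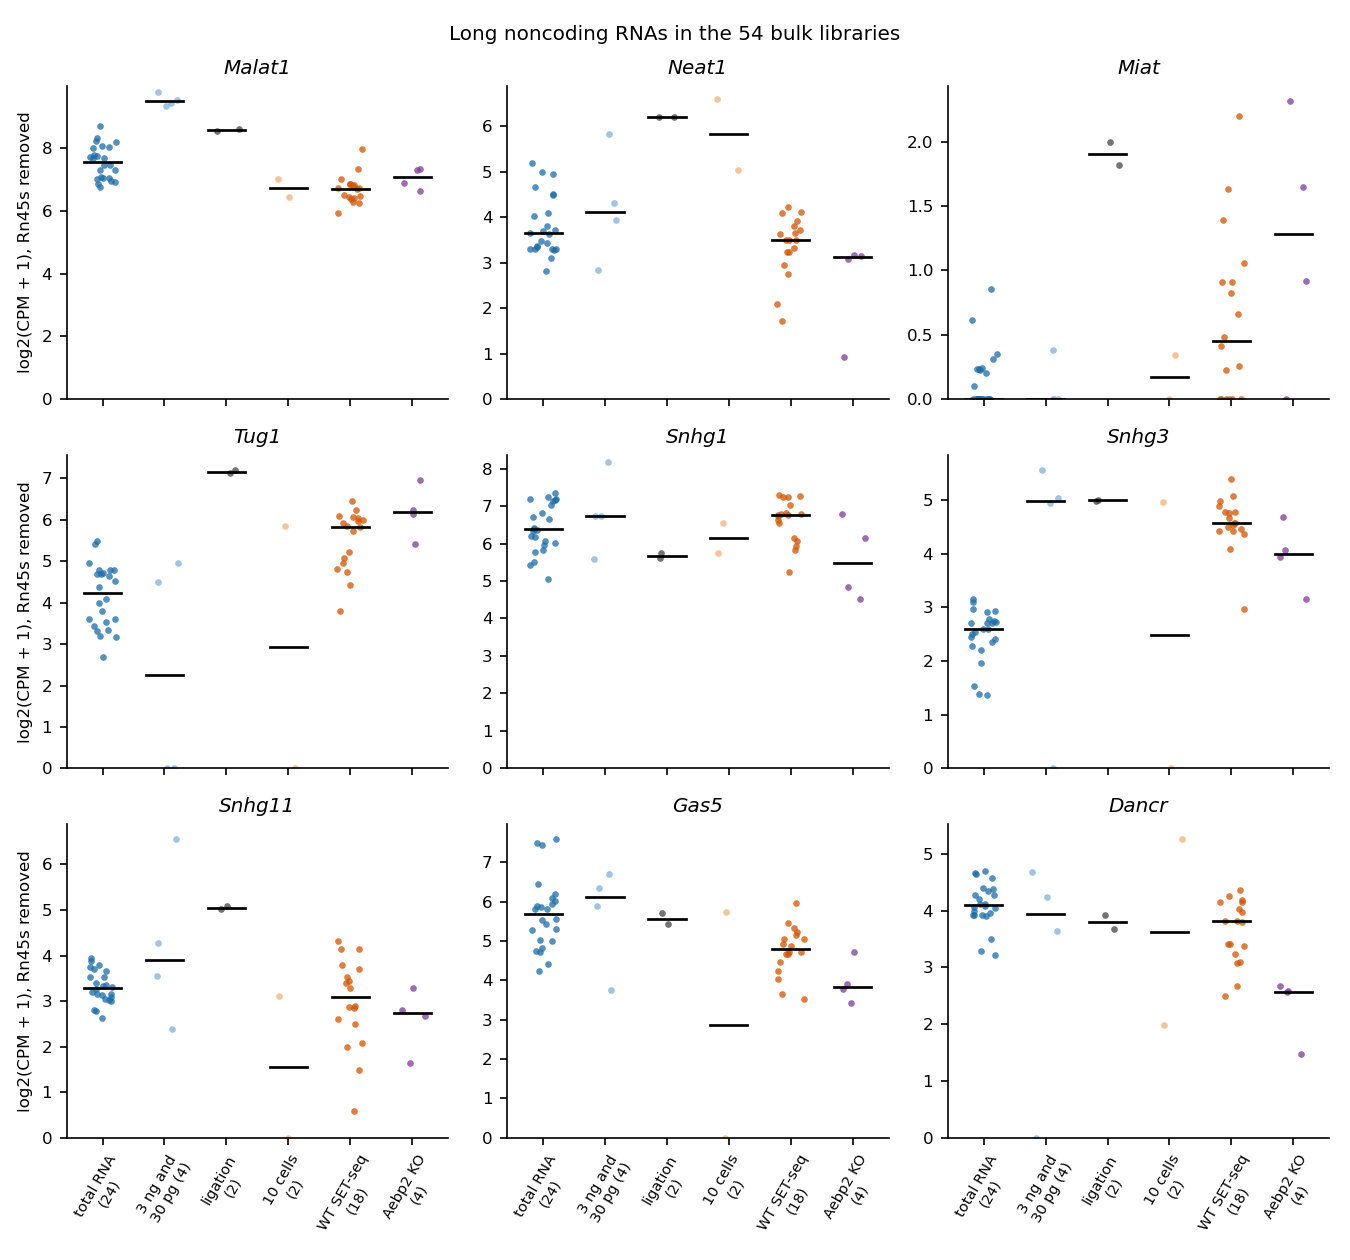
Level of each of the 9 members in every bulk library, as log2(CPM + 1) after removal of Rn45s, by kind of library; each point is 1 library, bars are medians, and numbers of libraries are in parentheses. Malat1 ran from 108 to 419 CPM in the 24 total RNA libraries and from 59.5 to 251 in the 18 WT SET-seq libraries, while Snhg3 ran from 1.56 to 7.93 and from 6.86 to 40.8.

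Cytoplasmic SET-seq was compared with whole-cell total RNA to ask which transcripts the cytoplasmic preparation holds. Of the 9 members, 7 changed, 4 lower and 3 higher, where 72.0% of the 14099 genes tested were called, 39.4% lower and 32.6% higher (edgeR quasi-likelihood test, Benjamini-Hochberg adjusted p below 0.05). The median log2 change was -0.35 over the members and -0.06 over all genes. The ranges of the 24 and 18 libraries overlapped for all 9 members, and did not for 6.43% of genes. Since so many genes differ between these libraries, the share of members called is not in itself a result about them, and the sizes and directions follow.

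Malat1 was lower in the cytoplasmic libraries. It stood at 59.5 CPM at the lowest, 103 at the median and 251 at the highest WT SET-seq library, against 108, 189 and 419 CPM in total RNA. The ranges overlap, and the highest SET-seq value came from the shallowest library, the replicate 2 of 1000 cells without antibody, where Malat1 had 49 counts. The fitted log2 change was -0.995 ± 0.092 (SE; adjusted p = 8.47e-12), so that 0.502 of the total RNA level was seen in SET-seq. In bulk libraries, fewer cells holding a transcript and less of it per cell cannot be told apart.

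Neat1 spanned 2.31 to 17.6 CPM in WT SET-seq with a median of 10.2, and 6.01 to 35.4 CPM in total RNA with a median of 11.5. Its upper range in total RNA came from the 6 libraries of the Tn5 amounts, which lay at 21.3 to 35.4 CPM, above all other total RNA libraries. The fitted log2 change was -0.51 ± 0.14 (adjusted p = 0.0014), and it was -0.02 ± 0.21 against the 16 °C libraries alone and -1.64 ± 0.22 against the Tn5 libraries alone.

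Miat was near the floor of detection everywhere but in the ligation libraries. It had no count in 14 of 24 total RNA and 6 of 18 WT SET-seq libraries, and reached 0.808 and 3.59 CPM at most. The fit gave a log2 change of 2.24 ± 0.75 (adjusted p = 0.00836), opposite in sign to the other nuclear-retained members, and the call was lost in 5 of 6 fits that left out the SET-seq libraries of 1 replicate number and antibody, each of which left a condition with no Miat count (log2 changes 1.67 to 2.10). At 0 to 17 counts per SET-seq library no more than a trace of Miat was measured on either side.

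Tug1, a multi-exon transcript found in nucleus and cytoplasm, was higher in SET-seq. WT SET-seq held 12.8 to 86.0 CPM with a median of 55.9, and total RNA 5.49 to 43.8 with a median of 17.9. The log2 change was 1.33 ± 0.11 (adjusted p = 4.59e-13). The lower SET-seq values were those without antibody, at 12.8 to 36.2 CPM, which overlap the total RNA range.

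Snhg3 rose the most among members with more than a trace of signal. It was counted at 6.86 to 40.8 CPM in WT SET-seq with a median of 22.7, and at 1.56 to 7.93 CPM in total RNA with a median of 5.06. Only the SET-seq library of 10000 cells without antibody, replicate 1, at 6.86 CPM, fell inside the total RNA range. The log2 change was 2.16 ± 0.14 (adjusted p = 1.66e-15), a 4.46-fold higher level in SET-seq.

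Gas5, named for its accumulation in growth-arrested cells, went the other way. Its level was 10.4 to 62.0 CPM in WT SET-seq with a median of 26.9, and 17.8 to 191 CPM in total RNA with a median of 50.8. The log2 change was -1.03 ± 0.24 (adjusted p = 0.000401). Dancr fell by less, with 4.64 to 19.6 CPM (median 13.02) in SET-seq, 8.27 to 25.0 CPM (median 16.2) in total RNA, and a log2 change of -0.57 ± 0.14 (adjusted p = 0.000476).

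The other 2 hosts did not pass the test. Snhg1 was measured at 36.6 to 155 CPM (median 108) in WT SET-seq and 32.2 to 163 (median 82.5) in total RNA, with a log2 change of 0.07 ± 0.09 (adjusted p = 0.532). Snhg11 was measured at 0.496 to 18.8 CPM (median 7.58) and 5.15 to 14.3 (median 8.72), with -0.35 ± 0.20 (adjusted p = 0.114). Among the 5 hosts, Snhg3 thus rose, Gas5 and Dancr fell, and Snhg1 and Snhg11 were not called.

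**Figure D2:**
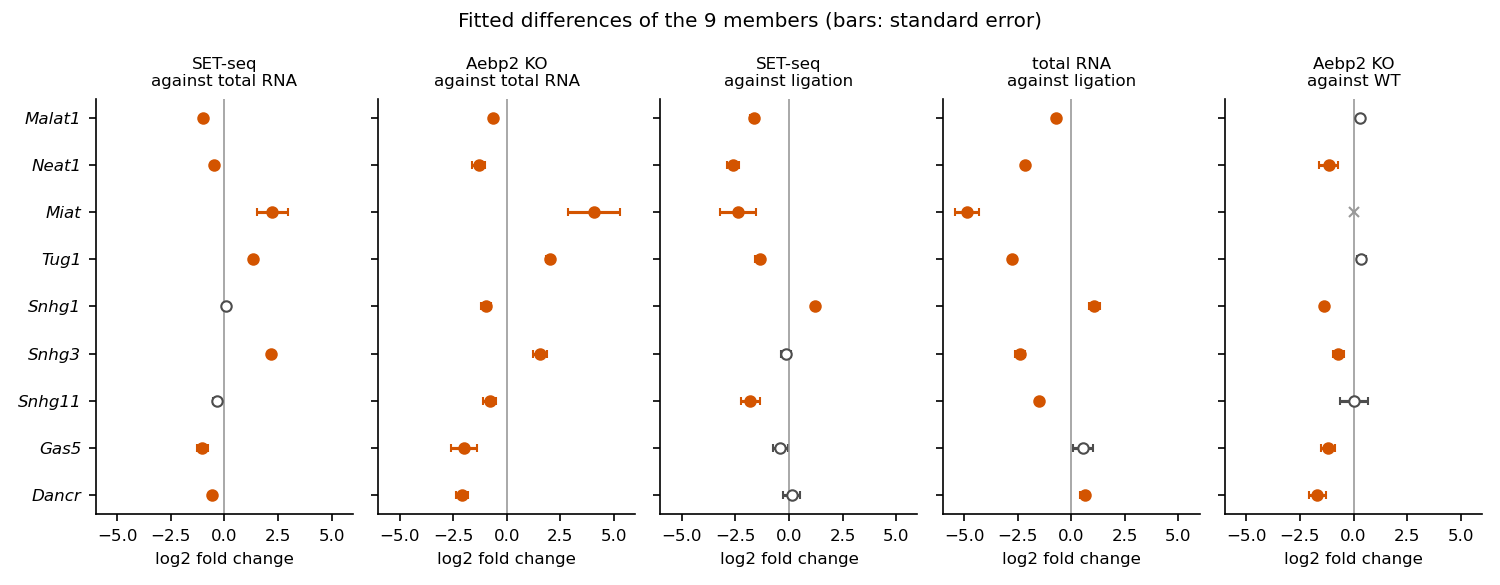
Fitted log2 fold change of each member, with its standard error, in the comparisons between kinds of library; filled points passed the adjusted p threshold of 0.05, open points did not, and the cross marks Miat, not tested in the clones against WT. Malat1 lies below 0 in SET-seq against total RNA (-0.995), in the Aebp2 clones against total RNA (-0.64) and in SET-seq against ligation (-1.64), and Snhg3 lies above 0 in the first 2 (2.16 and 1.55).

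SET-seq libraries were cut at 37 °C for 5 min, and 2 total RNA libraries carry that condition in their labels. The study chose it for later experiments and describes the Tn5 and RNA amounts after that choice, though their labels give no temperature or time. In the 2 labelled libraries Malat1 stood at 257 and 419 CPM, above all 18 WT SET-seq libraries. The log2 change of SET-seq against these 2 libraries alone was -1.72 ± 0.21. Of the members, 3 were called, where 35.9% of 12836 genes were: Malat1, Snhg3 (1.94 ± 0.41) and Gas5 (-1.28 ± 0.39). Tug1 was at 22 and 43.8 CPM in these libraries and its log2 change, 0.51 ± 0.33, was not called. Neat1 (-0.46), Snhg11 (-0.48), Dancr (-0.87) and Snhg1 (-0.39) were not called either, and Snhg1 changed sign. Against the 16 °C libraries alone, Gas5 (-0.34 ± 0.21) was not called. Against the 300 ng libraries alone, at 122 and 108 CPM and inside the SET-seq range, Malat1 was not called (-0.39 ± 0.22, adjusted p = 0.153). In the 6 libraries of the Tn5 amounts Malat1 was at 121 to 214 CPM, also inside the SET-seq range. With the 2 libraries labelled 37 °C, 5 min, Malat1 and Gas5 were called lower and Snhg3 higher in SET-seq, and the size of the Malat1 difference depends on the total RNA set.

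The ligation libraries share the Hprt state of WT SET-seq, and set against them the nuclear-retained Malat1, Neat1 and Miat were each called lower in SET-seq. Of 9 members 6 were called, 5 lower and 1 higher, where 49.8% of 13125 genes were called, 27.5% lower and 22.3% higher, and the median log2 change was -1.36 over the members and -0.13 over all genes. The ranges did not overlap for 4 members, Malat1, Neat1, Tug1 and Snhg11, nor for 38.2% of genes. Malat1 was at 375 and 388 CPM in the ligation libraries, above the highest SET-seq library at 251, and its log2 change was -1.64 ± 0.19 (adjusted p = 2.14e-07). Neat1 was at 72.7 and 72.8 CPM, more than any SET-seq library's 17.6, with a log2 change of -2.60 ± 0.27 (adjusted p = 4.43e-08). Miat had 42 and 35 counts, or 2.99 and 2.52 CPM, and a log2 change of -2.38 ± 0.85 (adjusted p = 0.0233), a call that was lost with DESeq2 (adjusted p = 0.126), without the first no-antibody replicates (0.07) and without either ligation library (0.175 and 0.113).

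Tug1 and Snhg11 were also lower in SET-seq than in ligation libraries. Tug1 stood at 146 and 138 CPM by ligation, and its log2 change was -1.36 ± 0.20 (adjusted p = 6.11e-06), opposite in sign to the comparison with total RNA. Snhg11 stood at 32.9 and 31.5 CPM, with -1.80 ± 0.46 (adjusted p = 0.00222). Snhg1 was higher in SET-seq, against 47.6 and 52.3 CPM by ligation, with 1.23 ± 0.16 (adjusted p = 1.51e-06). Snhg3, at 30.5 and 31.0 CPM, Gas5, at 51.3 and 42.1, and Dancr, at 11.8 and 14.2, were not called, with log2 changes of -0.15 ± 0.23, -0.41 ± 0.35 and 0.13 ± 0.40.

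Total RNA and ligation libraries both sample the whole cell, so the members were also compared between them. Of 9 members 8 were called, 6 lower and 2 higher in the tagmented total RNA, where 72.2% of 13224 genes were called, 37.4% lower and 34.8% higher. Tug1 was lower by 2.77 ± 0.15 on the log2 scale, Snhg3 by 2.38 ± 0.23, Neat1 by 2.16 ± 0.16, Snhg11 by 1.52 ± 0.14 and Malat1 by 0.72 ± 0.15, and Miat was lower by 4.87 ± 0.56. Snhg1 was higher by 1.08 ± 0.24 and Dancr by 0.62 ± 0.20, and Gas5 (0.55 ± 0.48, adjusted p = 0.308) was not called. The ranges of 5 members, Neat1, Miat, Tug1, Snhg3 and Snhg11, did not overlap, as for 48.6% of genes. For 7 of 9 members, all but Malat1 and Gas5, these differences between whole-cell libraries were larger in size than the fitted changes between WT SET-seq and total RNA, and library method, priming, sequencing platform and Hprt state cannot be told apart in them.

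The Aebp2 clones were profiled by cytoplasmic SET-seq with the H3K27me3 antibody, which the study used to follow Aebp2 loss. Aebp2 itself was at 15.7 and 15.0 CPM in KO1 and at 49.7 and 30.2 in KO2, against 34.7 to 76.0 CPM (median 56.6) in the 6 WT H3K27me3 libraries. Aebp2 transcript was lower in the clones (log2 change -1.07 ± 0.19, adjusted p = 0.000338) but was not absent, and KO2 overlaps WT. The study examined the clones by Sanger sequencing and Western blot, and a transcript level does not measure the protein.

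Against total RNA, with Hprt near 0 on both sides, all 9 members were called in the clones, 3 higher and 6 lower, where 62.5% of 13536 genes were called, 30.1% higher and 32.4% lower. The total RNA libraries are the same ones that WT SET-seq was compared with. The 2 sides differ in Aebp2 genotype and clone as well as in the compartment sampled, and these cannot be told apart here. Malat1 was at 156 and 161 CPM in KO1 and 116 and 97.0 in KO2, inside the total RNA range but for the last value, with a log2 change of -0.64 ± 0.13 (adjusted p = 0.000127). Neat1 was at 7.85, 7.49, 7.95 and 0.890 CPM, with -1.31 ± 0.32 (adjusted p = 0.000943). Snhg3, at 15.7, 24.6, 7.95 and 14.2 CPM, lay above all 24 total RNA libraries of this comparison and had a log2 change of 1.55 ± 0.32 (adjusted p = 0.000189). Dancr, at 4.91, 5.35, 4.97 and 1.78 CPM, lay below all 24 of these libraries, with -2.09 ± 0.30 (adjusted p = 1.16e-06). Snhg3 and Dancr were the 2 members whose ranges did not overlap, as for 21.9% of genes.

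Tug1 was higher in the clones at 74.6, 124, 69.6 and 41.8 CPM (2.02 ± 0.17, adjusted p = 2.04e-10), and Gas5 was lower at 25.5, 12.8, 13.9 and 9.79 CPM (-1.98 ± 0.60, adjusted p = 0.00837). Snhg1 was lower by 0.97 ± 0.22 (adjusted p = 0.00063) and Snhg11 by 0.80 ± 0.28 (adjusted p = 0.0159). Miat, with 0 to 4 counts in the clones, had a fitted log2 change of 4.09 ± 1.21. Against the 37 °C, 5 min libraries alone, 6 members were called, where 48.4% of 9176 genes were: Malat1 (-1.35), Snhg1 (-1.41), Gas5 (-2.20) and Dancr (-2.34) lower, and Tug1 (1.22) and Snhg3 (1.32) higher.

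Compared with WT H3K27me3 SET-seq, where both sides are cytoplasmic, the clones had less of most snoRNA hosts. Of 8 members tested 5 were called, all lower, where 50.8% of 11446 genes were called and 26.3% were called lower; with an unadjusted p below 0.05 and a log2 change above 1 in size, the rule the study used, the figures are 4 members and 28.6% of genes. Dancr fell by 1.69 ± 0.39 on the log2 scale (adjusted p = 0.0025), from 9.58 to 18 CPM in WT to 1.78 to 5.35 in the clones, with no overlap. Snhg1 fell by 1.36 ± 0.16 (adjusted p = 8.95e-06): WT libraries lay at 97.0 to 155 CPM, KO1 at 109 and 69.5 and KO2 at 21.9 and 27.6. Gas5 fell by 1.19 ± 0.32 (adjusted p = 0.00745), Neat1 by 1.17 ± 0.44 (adjusted p = 0.042) and Snhg3 by 0.71 ± 0.26 (adjusted p = 0.0371). The Neat1 call was lost in 10 alternatives (DESeq2 adjusted p = 0.0651, KO1 alone 0.146, KO2 alone 0.0874), that of Snhg3 in 7 (DESeq2 0.104, KO1 alone 0.355) and that of Gas5 in 2 (KO1 alone 0.129, without KO1 replicate 2 0.0505). Neat1 and Dancr did not overlap between the groups, as for 33.1% of genes.

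Malat1 did not pass the test between clones and WT, at 97.0 to 161 against 74.8 to 129 CPM (0.33 ± 0.14, adjusted p = 0.0617), and neither did Tug1 (0.37 ± 0.22) or Snhg11 (0.02 ± 0.67). Hprt was at 291 to 485 CPM in these WT libraries and 0 to 2.14 in the clones, and Rn45s took a larger share of the clone libraries, so that loss of Aebp2 and a different stock of cells cannot be told apart. The 2 clones differed from each other in Snhg1, which was higher in KO1 by 1.75 ± 0.30 on the log2 scale (adjusted p = 0.000119); it was the 1 member called of 5 tested, where 10.4% of 8551 genes were called. Against WT, Snhg1 fell by 0.51 ± 0.18 in KO1 alone and by 2.24 ± 0.19 in KO2 alone, and with the WT libraries without antibody on the other side its log2 change, -0.45, was not called.

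The tube reactions labelled 16 °C and 37 °C were compared with each other, both with the same kind of RNA. From 16 °C to 37 °C, 4 of 8 members tested rose and none fell, where 59.9% of 12297 genes were called and 29.2% were called higher. Malat1 went from 115 to 209 CPM (median 154, 8 libraries) to 220 to 419 (median 280, 8 libraries), with no overlap and a log2 change of 0.94 ± 0.12 (adjusted p = 6.82e-05). Snhg1 went from 53.9 to 104 CPM (median 80.5) to 111 to 163 (median 144), also without overlap (0.87 ± 0.07, adjusted p = 1.44e-13). Tug1 rose from a median of 17.9 to 25.7 CPM with overlapping ranges (0.67 ± 0.14, adjusted p = 0.00013). The 6 libraries of the Tn5 amounts, which the study describes after choosing 37 °C for 5 min, held less of these members. Malat1 was at 121 to 214 CPM there, Snhg1 at 32.2 to 71.6 and Tug1 at 5.49 to 11.1. Whether temperature or the set of libraries moved the members was not tested.

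Gas5 rose by 1.71 ± 0.40 (adjusted p = 0.00554), from 25.2 to 55.3 CPM (median 34.8) to 57.1 to 191 (median 79.4). At 37 °C its 2 replicate sets stood apart: replicate 1 lay at 57.1, 60.5, 58.3 and 72.7 CPM for 5, 10, 15 and 30 min, and replicate 2 at 86.2, 173, 180 and 191. Without the replicate 2 libraries at 37 °C the rise was 0.84 ± 0.27 on the log2 scale and still called, and without the replicate 1 libraries at 16 °C it was 1.46 ± 0.59 and was not (adjusted p = 0.112). Neat1 (0.30 ± 0.15), Snhg3 (-0.16 ± 0.20), Snhg11 (0.25 ± 0.17) and Dancr (0.25 ± 0.13) did not pass.

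**Figure D3:**
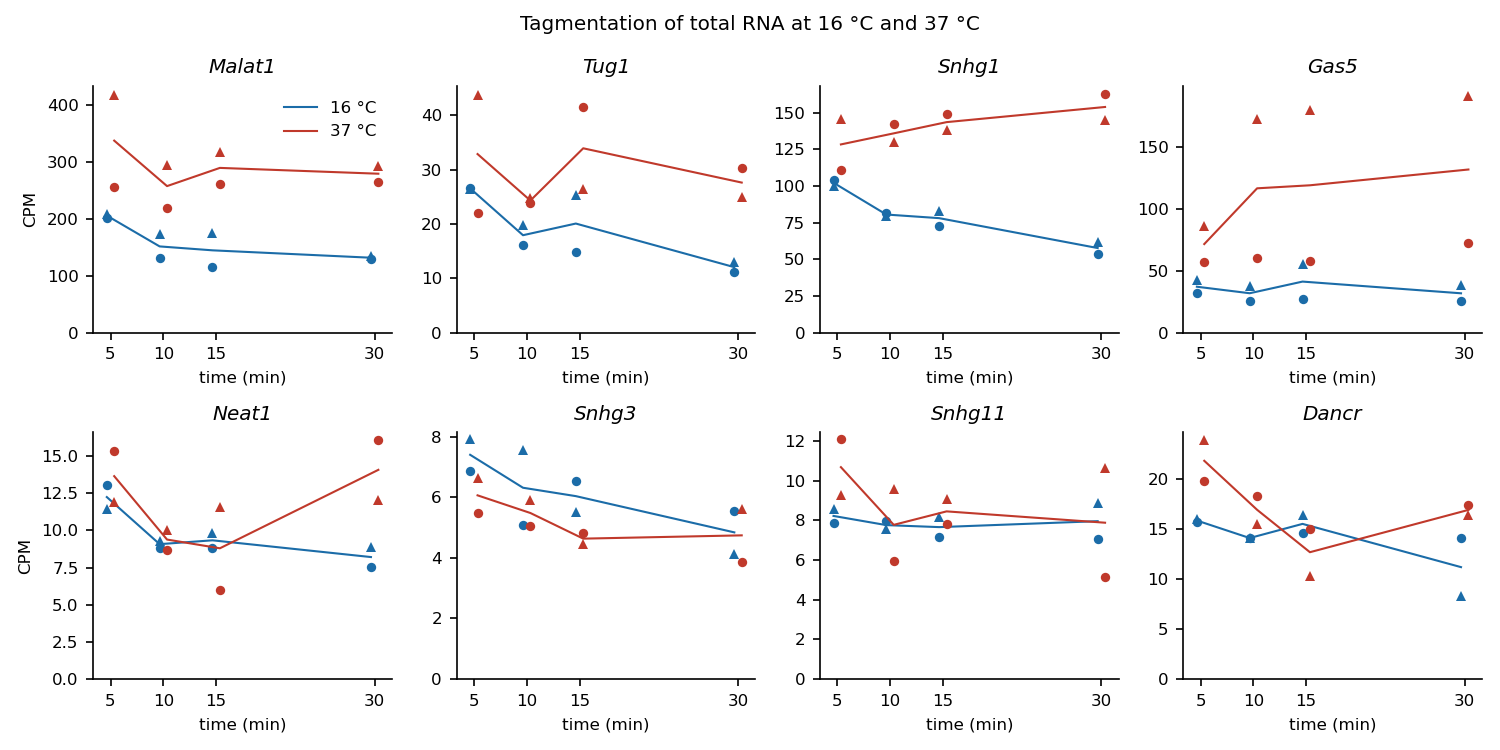
Level of the 8 members tested in total RNA cut at 16 °C or 37 °C, in CPM, against reaction time in min; circles are replicate 1, triangles replicate 2, and lines join the means. Malat1 lies at 115 to 209 CPM at 16 °C and 220 to 419 at 37 °C, and the Gas5 replicates at 37 °C part into 57.1 to 72.7 and 86.2 to 191.

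Malat1 took a larger share of the counts left after Rn45s removal in the libraries made from little RNA. It was at 122 and 108 CPM from 300 ng, 743 and 686 from 3 ng, and 645 and 878 from 30 pg, so that all 4 low-input libraries lay above every one of the other 24 total RNA libraries. From 30 pg the log2 change was 2.45 ± 0.17 (adjusted p = 0.0221), and from 3 ng it was 2.54 ± 0.17, which missed the threshold (adjusted p = 0.0995). In the 3 ng comparison 0 of 10753 genes were called by edgeR, 0.0%, although 1497 genes had an unadjusted p below 0.05 and DESeq2 called 822. From 30 pg, 1 member was called higher and 1 lower, where 21.5% of 10753 genes were called, 1.8% higher and 19.7% lower, and the number of members called ran from 0 to 8 when either library on either side was left out. Rn45s took 64.7% to 84.6% of the low-input libraries, against 18.2% and 17.4% of the 300 ng libraries. The CPM leave Rn45s out, so they do not show that Malat1 took a larger share of all counts.

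The other called member was Tug1, which had no count in either 30 pg library and was at least 8.62-fold lower than from 300 ng (9.74 and 7.96 CPM) when 3 counts over the group are taken as the limit of detection. At 3 ng Tug1 was at 30.1 and 21.8 CPM. The remaining members scattered between the 2 libraries of 30 pg: Snhg1 at 46.6 and 288 CPM, Snhg3 at 45.9 and 0, Snhg11 at 18.2 and 92.8, Neat1 at 55.4 and 6.18 and Gas5 at 12.4 and 58.7. At this input the median gene fell by 0.44 on the log2 scale, and differences of members other than Malat1 and Tug1 were not called.

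**Figure D4:**
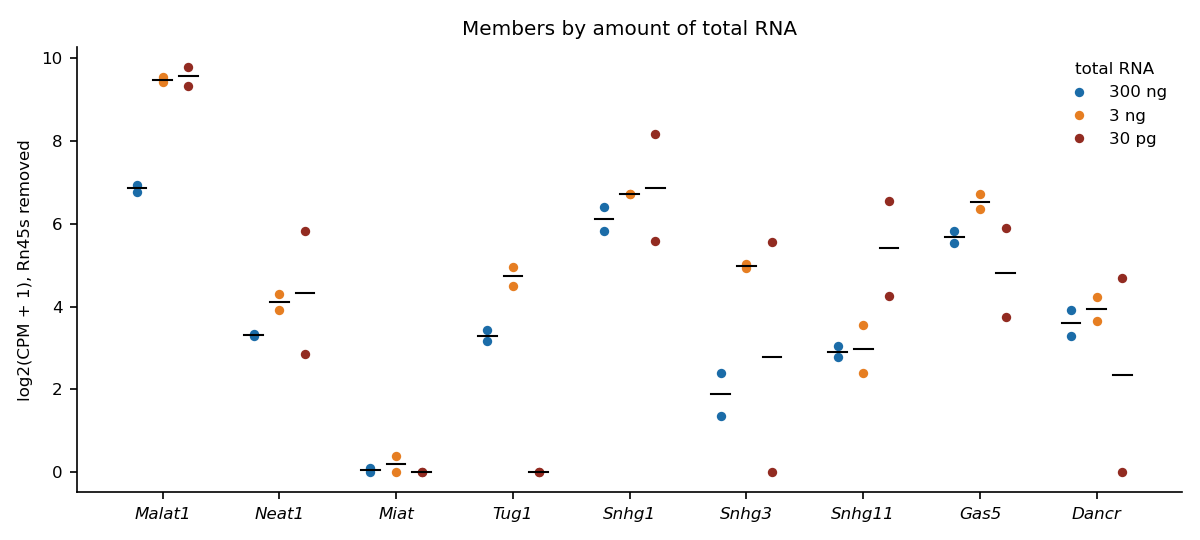
Level of the members, as log2(CPM + 1) after removal of Rn45s, in total RNA libraries made from decreasing amounts, 300 ng to 30 pg. Each point is 1 library, 2 per amount, and bars are means. Malat1 rises from 108 and 122 to between 645 and 878 CPM, and Tug1 is at 0 in both 30 pg libraries.

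Within SET-seq, Tug1 and Snhg1 were higher in the libraries with an antibody on the nuclei. They were the 2 members called of 8, where 39.3% of 12665 genes were called and 19.1% were called higher. Tug1 stood at 32.6 to 86.0 CPM (median 62.0) in the 12 antibody libraries and at 12.8 to 36.2 (median 26.3) in the 6 without, a log2 change of 1.15 ± 0.19 (adjusted p = 7.02e-05). Snhg1 stood at 92.2 to 155 CPM (median 111) and 36.6 to 107 (median 63.5), with 0.85 ± 0.12 (adjusted p = 7.55e-06). Malat1 (-0.09 ± 0.17) and Neat1 (-0.12 ± 0.31) did not pass. For Malat1 the no-antibody replicates pulled apart, with -0.51 ± 0.15 (adjusted p = 0.031) without the replicate 1 libraries and 0.33 ± 0.14 (adjusted p = 0.0793) without the replicate 2 libraries. In the study's protocol the supernatant was taken off before the nuclei were given an antibody, so this RNA was not incubated with it. The antibody and no-antibody libraries were deposited as separate sets, and what else differs between the sets was not tested.

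Between the 2 antibodies 0 of 12124 genes were called by edgeR (0.0%, 611 at an unadjusted p below 0.05, and 0 by DESeq2). Neat1 was at 8.42 to 17.6 CPM with H3K27me3 and 3.28 to 11.4 with H3K4me3 (0.82 ± 0.28, unadjusted p = 0.0117, adjusted p = 0.982). Between 100 and 10000 cells, 0 of 9 members were called, where 18.1% of 13314 genes were. Malat1 was at 74.8 to 159 CPM from 100 cells and 59.5 to 129 from 10000. From 10 cells, replicate 1 held Malat1 at 86.4, Snhg1 at 92.6 and Tug1 at 56.8 CPM, inside the range of larger inputs, and replicate 2, with 188275 counts beside Rn45s, held 24 counts of Malat1 and none of Tug1, Snhg3, Snhg11 or Gas5. A count of 0 there was not evidence of absence at this depth.

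Other genes tied to these RNAs give a background to the members. Of 14 further snoRNA-host lncRNAs tested in WT SET-seq against total RNA, 3 were called higher and 11 lower, where 32.6% of all genes were called higher and 39.4% lower, with a median log2 change of -0.87. In the Aebp2 clones against total RNA 0 of 14 were higher and 13 lower (32.4% of all genes lower), and against WT H3K27me3 SET-seq 8 of 12 were lower and 0 higher (26.3% of all genes lower). Snhg18 (-2.91 ± 0.35) and Snhg10 (-1.39 ± 0.36) fell and Snhg14, the host of the Prader-Willi locus snoRNAs, rose (2.60 ± 0.33). In total RNA Snhg18, Snhg10 and Snhg14 reached at most 5.36, 5.92 and 7.955 CPM, so these folds rest on few counts. The WT SET-seq ranges, 0 to 10.2, 0 to 6.96 and 0 to 15.4 CPM, overlap those of total RNA. Against ligation libraries 4 of 12 were higher in SET-seq (22.3% of all genes) and 0 lower, and between total RNA and ligation 12 of 14 were higher in total RNA (34.8% of all genes) and 2 lower.

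Nuclear and imprinted lncRNAs split evenly in SET-seq against total RNA, 4 of 11 higher and 4 lower, beside the 32.6% and 39.4% of all genes that also apply to the lists that follow. The imprinted Peg13 (4.97 ± 0.51) and H19 (4.48 ± 0.49) were higher in SET-seq, and Mirg, a microRNA host of the Dlk1-Dio3 locus, was lower (-3.77 ± 0.24). Peg13 reached at most 0.591 CPM and H19 at most 1.10 in total RNA, so these folds rest on few counts.

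Paraspeckle proteins, the partners of Neat1, were mostly higher in SET-seq against total RNA, 8 of 10, and Nudt21 (1.90 ± 0.16) and Cpsf6 (1.08 ± 0.08) rose. Splicing regulators, many of which gather with Malat1 in speckles, were higher for 10 of 16 and lower for 4, led by Tra2b (1.95 ± 0.13), Ddx5 (1.76 ± 0.07) and Srsf3 (1.59 ± 0.07). Nonsense-mediated decay factors were higher for 7 of 10 and lower for 3, the kinase Smg1 (-0.81 ± 0.12) and the helicase Upf1 (-0.70 ± 0.09) being lower and Smg6 (0.56 ± 0.07) higher. Against the ligation libraries these lists leaned the other way, with 2 of 10 paraspeckle proteins higher and 7 lower, 4 of 16 splicing regulators higher and 6 lower, and 1 of 10 decay factors higher and 7 lower, where 22.3% of all genes were higher and 27.5% lower.

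Of the cell type lists, embryonic stem cell markers were higher for 3 of 8 and lower for 4, with Sox2 lower (-1.65 ± 0.06) and Nanog (1.57 ± 0.06) and Esrrb (1.37 ± 0.05) higher. Fibroblast markers were higher for 1 of 4 and lower for 2 (Col1a2 -2.63 ± 0.51, Pdgfra -1.81 ± 0.46, Col1a1 1.26 ± 0.50), each at 7.30 CPM or less in these libraries. Primitive endoderm markers were lower for 2 of 3 (Gata6 -2.32 ± 0.51, Sox17 -1.79 ± 0.48), with Gata4 not called (-0.52 ± 0.32).

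Snord22 and Snord47, the snoRNA genes annotated in introns of members, had few counts, and other snoRNAs were not looked at here. Snord22, which lies in an intron of Snhg1 and was looked at after its values were seen, had 1 to 90 counts in total RNA libraries (median 2.59 CPM), 76 and 85 in the ligation libraries, 0 to 4 in WT SET-seq, where 14 of 18 libraries had none, and 0 to 2 in the clones. Its host Snhg1 kept 36.6 to 155 CPM in the same WT SET-seq libraries. Snord47, in a Gas5 intron, had 0 to 6 counts in total RNA, 15 and 17 by ligation and 0 to 3 in WT SET-seq. The log2 change of Snord22 between WT SET-seq and total RNA was -5.11 ± 0.59 (adjusted p = 7.17e-09).

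Across the 27 bulk conditions, with the 2 replicates averaged, the genes of 11220 whose log2 level followed Malat1 most closely were St13 (Pearson r = 0.860), Dus4l (0.853), Cdkn1b (0.843), Anln (0.833) and Epb41l4a (0.824). For Gas5 they were Snapc1 (0.900), Snrnp48 (0.866), Ikbip (0.863), Dnajc1 (0.855) and Dhrs7 (0.843). Among the 36 pairs of members, Tug1 and Snhg3 were most alike (0.671), followed by Malat1 and Gas5 (0.570) and by Gas5 and Dancr (0.546), and Miat and Snhg1 were least alike (-0.441). The conditions share cell stock and protocol within each set, so these correlations describe the sets as much as the genes.

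In scSET-seq, 335 of 384 cells with H3K27me3, from 10 experiments, and 210 of 368 with H3K4me3, from 6, had more than 1000 and fewer than 5000 genes and were used. The tables count reads on exons and introns with no molecular identifiers, and 80 of the 96 cell barcodes occur in more than 1 experiment. H3K27me3 experiments 8, 9 and 10, with 165 cells, stood apart: the embryonic stem cell markers summed to 1.503, 0.704 and 3.13 CPM there, against 535 to 3662 in experiments 1 to 7 and 341 to 9938 in the H3K4me3 experiments. Those cells nevertheless had 1825.5 to 2451 genes each at the median, and 54526205 counts in all. They go against their label as embryonic stem cells, and the main values are given with and without them.

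In these 3 experiments 8 members were near or at 0, with 24 counts between them, 19 of which were Neat1. Malat1 was at 0 counts in experiment 8 and 1 in experiment 10, but at 558 counts in experiment 9, in 43 of 47 cells. In experiments 1 to 7, with 170 cells and 55165854 counts, Malat1 had 1967 counts, Gas5 4042, Snhg3 3962, Snhg1 1879, Snhg11 1785, Tug1 28, Dancr 28, Miat 19 and Neat1 12.

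A read of Malat1 was found in 35.2% of the H3K27me3 cells (exact 95% interval 30.1% to 40.6%), in 43.5% of those of experiments 1 to 7, and in 29.0% of the H3K4me3 cells (23.0% to 35.7%). Gas5 was found in 17.9% (13.95% to 22.4%), 34.7% and 44.8% (37.9% to 51.8%), Snhg1 in 12.5% (9.19% to 16.6%), 23.5% and 31.0% (24.8% to 37.7%), and Snhg3 in 10.1% (7.13% to 13.9%), 20.0% and 29.5% (23.4% to 36.2%) of the same sets. In experiments 8 to 10 the share was 0.606% for Gas5, 1.21% for Snhg1 and 26.7% for Malat1. By experiment the Malat1 share ran from 0% to 91.5% with H3K27me3 and from 0% to 77.3% with H3K4me3. The Gas5 share ran from 0% to 64.3% and from 25% to 68.2%. The intervals pool the cells of all experiments and do not measure this spread. Median depth was 198020 reads per H3K27me3 cell and 93762.5 per H3K4me3 cell. With every cell thinned to 20000 reads, Malat1 was seen in 12.5% of H3K27me3 cells, 14.5% without experiments 8 to 10 and 13.4% of H3K4me3 cells, and Gas5 in 6.94%, 16.1% and 24.9%.

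The lower members were found in few cells. Neat1 was read in 5.37% and 10.48% of H3K27me3 and H3K4me3 cells, Tug1 in 3.28% and 8.10%, Snhg11 in 2.69% and 7.62% and Dancr in 4.18% and 12.4%. Without experiments 8 to 10 the H3K27me3 shares were 4.71% for Neat1, 6.47% for Tug1, 5.29% for Snhg11 and 8.24% for Dancr. Miat was read in 2.39% of H3K27me3 cells, in 4.12% without experiments 8 to 10, and in 0 of 210 H3K4me3 cells. That 0 allows up to 1.74% of cells with a read (upper end of the exact 95% interval). It does not limit the share of cells that hold the transcript. Levels swung between experiments: Malat1 ran from 0 to 192 CPM over the 10 H3K27me3 experiments (median 15.8), from 1.55 to 192 over experiments 1 to 7 (median 16.9), and from 0 to 97.1 over the 6 H3K4me3 experiments (median 23.4). Within an experiment 1 cell often held most reads, as in H3K27me3 experiment 2, where 99.6% of 1456 Malat1 reads lay in 1 of 8 cells.

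**Figure D5:**
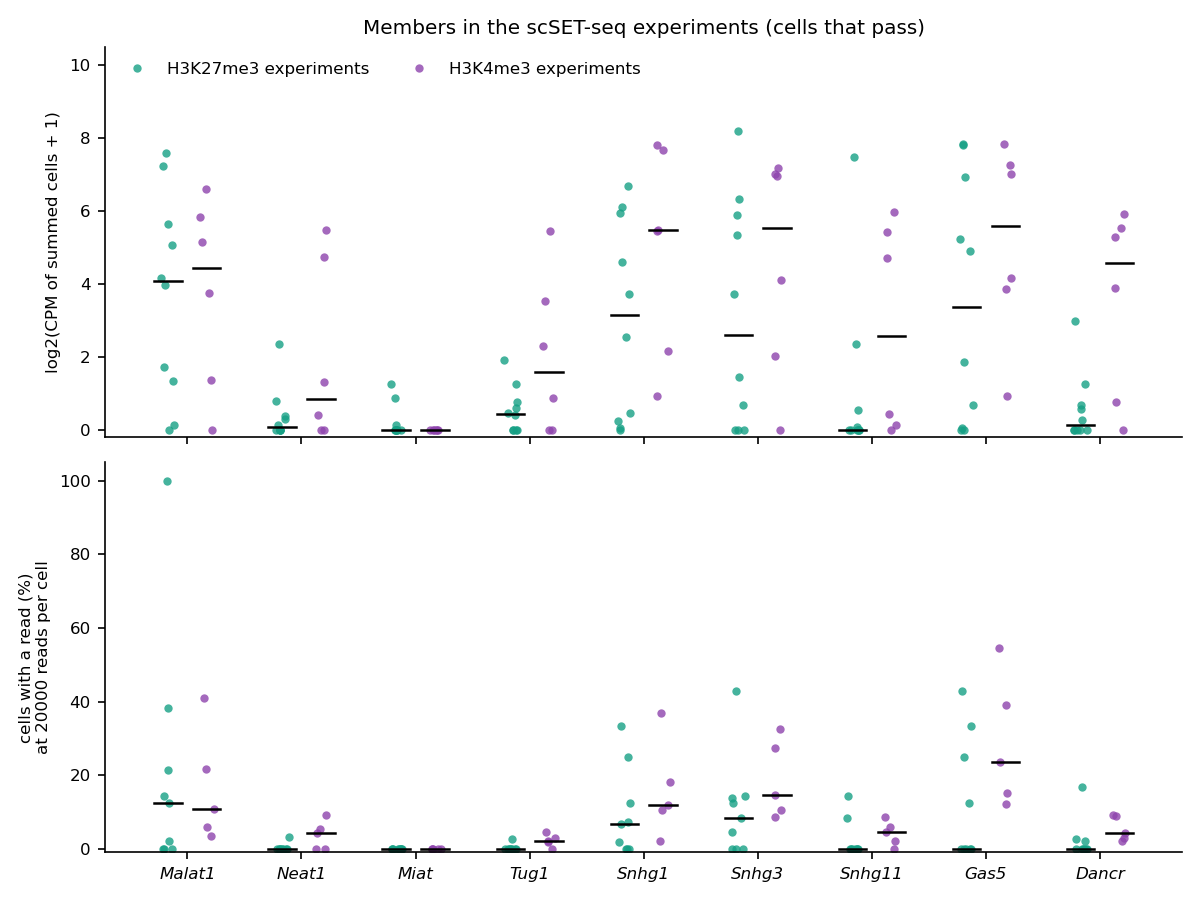
Members in scSET-seq, by experiment: the upper panel gives the level of the summed cells as log2(CPM + 1), the lower the percent of cells with a read after thinning to 20000 reads, for experiments with at least 5 such cells; bars are medians over experiments. Malat1 runs from 0 to 192 CPM over H3K27me3 experiments and from 0 to 97.1 over H3K4me3 experiments.

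Proximal and distal cells were compared on counts summed per position in the 14 experiments that had both, with experiment as a block. By edgeR 0 of 4885 genes were called (0.0%), 180 had an unadjusted p below 0.05, and DESeq2 called 26. Of the 4 members tested, Gas5 had a log2 change of 1.23 ± 0.61 (unadjusted p = 0.0554, adjusted p = 0.998) and was higher in the proximal cells in 5 of 5 H3K4me3 experiments and 6 of 9 H3K27me3 experiments, with 1 lower, or 5 of 6 without experiments 8 to 10. Malat1 (-0.44 ± 0.92), Snhg1 (1.97 ± 1.46) and Snhg3 (-1.05 ± 1.15) did not pass either. Without H3K27me3 experiments 8 to 10, 0 of 3902 genes were called by edgeR, with 149 at an unadjusted p below 0.05, and the changes were 1.09 ± 0.62 for Gas5, -0.81 ± 1.07 for Malat1, 1.64 ± 1.71 for Snhg1 and -1.11 ± 1.21 for Snhg3. These counts of 0 do not show that the positions were alike. Snhg11 was too sparse to be tested and went both ways. In H3K4me3 experiments 2, 5 and 6 it was at 80.0, 119.7 and 49.6 CPM in proximal and 0.230, 1.72 and 1.92 in distal cells, and experiments 3 and 4 had 1 proximal count against 0. In H3K27me3 experiment 3 it was at 321 CPM in distal cells (1778 counts) and 0.445 in proximal ones, and of the 9 H3K27me3 experiments 3 were higher proximally and 1 distally.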

How the data were processed

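Bulk files hold read-pair counts per gene that the authors deposited after trimming (Trim Galore 0.6.4), alignment to mm9 (STAR 2.5.4b) and counting over refGene exons with featureCounts (2.0.0 in 50 files, 2.0.1 in 4), without strand and without read pairs that fit several genes or places. The single-cell tables hold read counts on exons and introns, deposited by the authors as 1 column per cell. From the counts, Rn45s was removed, CPM and RPKM (exonic length from the files) were computed, and edgeR 4.0.16 in R 4.3.3 was fitted across all genes kept by its expression filter, with TMM factors, 1 coefficient per condition, and contrasts of equally weighted condition means. The quasi-likelihood test was two-sided, and p-values were adjusted by Benjamini-Hochberg over all genes tested, with a threshold of 0.05. DESeq2 1.42.0, limma 3.58.1, other scalings and filters, a replicate block, left-out libraries and other library sets were the alternatives, in 189 bulk and 24 single-cell fits, and the fits were tested on simulated counts with 200 changed genes.

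The 2 libraries of a condition are described as independent by the study, but nothing ties a number to a culture, so p-values measure the spread between these libraries, which may be technical. Precision is set by depth, 235040 to 21520982 counts per bulk library. Cell positions come from the study's own cell list. Intervals on shares of cells are exact (Clopper-Pearson) over the pooled cells of all experiments. Intervals and floors (3 counts) cover counting error only, and not the spread between experiments. Members and gene lists were chosen with earlier results of these data known. Per list, the 3 tested genes with the largest change in size between SET-seq and total RNA were named, apart from 1 gene that is not reported here, and for Malat1 and Gas5 the 5 genes with the highest Pearson correlation. Sequences were read from the mm9 genome.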

Additional observations from a re-analysis of the deposited data

Results flagged for a closer look

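Over the experiments of each scSET-seq mark, 17 sets of member levels were checked for a single experiment that stands far from the others (Dixon's test at 95%), and chance alone would mark about 1 in 20. In the H3K27me3 experiments, experiment 3 had Snhg3 at 294 CPM, with 79.1 in the next, and Snhg11 at 177 CPM, with 4.12 in the next. Of its 2951 Snhg3 reads 38.0% came from 1 of 14 cells, and of its 1780 Snhg11 reads 51.0% came from 1 cell. H3K27me3 experiment 5, which is shallow, had Neat1 at 4.12 CPM (3 counts, all in 1 cell, the next experiment at 0.714), Tug1 at 2.75 CPM (2 counts, the next at 1.37) and Dancr at 6.87 CPM (5 counts, the next at 1.37). In the H3K4me3 experiments, Tug1 was at 43.1 CPM in experiment 2, with 10.6 in the next, and 99.2% of its 389 reads lay in 1 of 34 cells.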

How the results depend on the processing

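Over the 65 member results examined the alternatives kept direction and call in 1056 cases, lost the call in 61, gained it in 20 and changed the sign in 29, and none of the 44 called results changed sign. For SET-seq against total RNA, 3 members were called with 37 °C for 5 min alone and 3 with 300 ng alone. In the Aebp2 clones against WT, 3 were called with the WT side without antibody and 3 with KO1 alone; between clones, 3 without a composition factor. From 3 ng, 1 member was called by DESeq2 and 1 with no filter on low counts, and from 30 pg 0 with the replicate block. With single libraries or sets left out, member counts ran from 0 to 8 (30 pg), 3 to 6 (clones against WT) and 1 to 2 (between clones). With Rn45s kept in the totals, median CPM was 71.4 for Neat1 and 30.2 for Snhg3 by ligation, and in the clones 63.6 for Malat1, 3.48 for Neat1, 34.0 for Tug1, 6.83 for Snhg3, 2.81 for Snhg11 and 2.34 for Dancr.

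Among these results, those that changed sign, each of them not called in the main test, were Snhg1 in SET-seq against total RNA (-0.57 with 37 °C alone, -0.39 with 37 °C for 5 min, -0.43 without antibody, -0.03494 to 0.2215 with libraries left out), Snhg11 there (0.36 without antibody, 0.50 with 10000 cells), Dancr in SET-seq against ligation (-0.15 without a composition factor, -0.10 to 0.1808 with libraries left out), Gas5 in total RNA against ligation (-0.14 with 16 °C alone), Snhg11 between 37 °C and 16 °C (-0.07236 to 0.3374 with libraries left out), between antibody and none Malat1 (-0.51 to 0.3337 with libraries left out) and Neat1 (0.01252 without a composition factor, -0.2178 to 0.4674 with libraries left out), between positions Malat1 (0.02224 with all cells) and Snhg3 (0.0137 by limma, 0.1725 with no replicate block), and, in the clones against WT, Tug1 (-0.001144 with KO2 alone) and Snhg11 (-0.007972 without a composition factor, -0.05577 with no filter, -0.05793 with KO1 alone, -0.01395 with the replicate block, -0.80, -1.03 and -0.44 with the WT side of 10000 cells, without antibody and over all SET-seq conditions, and -0.69 to 0.8238 with libraries left out).

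Counts of all genes called moved by over 1.5 times from 10152 to 4603 (37 °C, 5 min) and 6335 (300 ng) in SET-seq against total RNA, from 8459 to 4443 (37 °C, 5 min) in the clones against total RNA, from 5812 to 3275 (the study's rule) against WT, from 891 to 352 (DESeq2) and 181 to 1345 (libraries left out) between clones, from 0 to 822 (DESeq2) and 32 (no filter) at 3 ng, from 2313 to 0 (block) and 0 to 8002 (libraries left out) at 30 pg, from 4983 to 2575 without the first no-antibody replicates, where Malat1 was called at -0.51, from 2410 to 1230 (a set left out) between 100 and 10000 cells, and from 0 to 24 (no filter), 26 (DESeq2) and 55 (no replicate block) between positions. The replicate numbers paired the 6 libraries of the Tn5 amounts (correlations of deviations 0.777 to 0.8513), which share no comparison of their own here, and not every pair of conditions in any comparison made (-0.37 to 0.8513), and the block changed the member count only at 30 pg. A lone library left on a side is assumed to vary like the others. The causes were not tested. Depth limits Miat, the 10-cell and 30 pg libraries and most members in single cells.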
